A study of Drosophila melanogaster with 4 samples.

Results

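The RNAs described here are sequence tags of 24 to 29 nt that do not begin with T and have A at base 10, counted from the 5′ end. They are called A10 tags below. Tags that held N, or that shared an exact stretch of 15 bases with the most abundant 30 nt tag, were left out. Of 252353 distinct tags in the series, 11039 were of this size and kept, and 1676 of those were A10 tags. The choice used sequence and length, and counts only to find the abundant 30 nt tag.

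Small RNA was sequenced from Drosophila melanogaster males in the third larval instar, with 50 larvae in each sample. The 2 snapback libraries came from males with ectopic expression of double-stranded RNA of the 1.688 satellite, from a snapback construct whose promoter is not given in the labels. The other 2 libraries were of yw males, a reference strain kept in the laboratory. No other allele or treatment is named for either group. Nothing in the labels states that replicates are separate cultures, and a p-value here covers the spread between the samples sequenced, which may be only technical. In whole larvae, fewer cells that make an RNA and less RNA per cell cannot be told apart.

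Listed reads ranged from 5330415 to 20453996 per library. Each list stopped at 4 reads, so a tag that is not listed had at most 3, which is 0.147 to 0.563 reads per 1000000 listed reads (RPM). The most abundant 30 nt tag took 36.5% and 35.5% of listed reads in snapback and 0.752% and 0.703% in yw, and reads of 40 nt took 4.98% and 4.18% in snapback and 14.6% and 39.8% in yw. Both moved with genotype. Apart from another denominator for the level of A10 tags, their part in the results below was not tested. Genotype and any difference in library preparation cannot be told apart.

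Piwi-interacting RNAs (piRNAs) guide Piwi proteins to transcripts of transposons and satellites, chiefly in the gonads of flies. In the ping-pong cycle, a piRNA that begins with U guides the cut of an opposite-strand transcript, and the cut makes the 5′ end of a secondary piRNA. The members of such a pair overlap by 10 bases at their 5′ ends, so the secondary piRNA has A at base 10. Abundant RNAs of other kinds also leave fragments of this length, and an A at base 10 alone does not tell them apart. The tags have no coordinates, so no tag sequence is printed, and each tag is named by its first 5 bases and its length.

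The level of A10 tags was lower in snapback than in yw. They held 7535 reads in 319 tags in snapback replicate 1 and 8622 reads in 396 tags in snapback replicate 2. In yw they held 79675 reads in 965 tags and 94184 reads in 752 tags in replicates 1 and 2. Raw counts of reads and tags depend on depth, and listed reads were 5330415 and 7782397 in snapback and 20453996 and 15183229 in yw. Listed tags of all kinds were also fewer in snapback, at 38901 and 46568 against 115128 and 141830 in yw. The A10 reads were 1414 and 1108 RPM in snapback and 3895 and 6203 RPM in yw. Both yw libraries lay above both snapback libraries. Snapback averaged 1261 ± 216 RPM (SD, n = 2) and yw 5049 ± 1632 (SD, n = 2), a 4.0-fold difference. The exact two-sided permutation p was 0.33, the smallest that 2 libraries against 2 allow.

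Reads of A10 tags made up 8.99% and 8.31% of the reads of all 24 to 29 nt tags not beginning with T in snapback, and 14.3% and 20.9% in yw. The exact Clopper-Pearson 95% intervals were 8.80 to 9.19, 8.14 to 8.48, 14.2 to 14.4 and 20.8 to 21.0. Reads were not collapsed to molecules, so the intervals cover counting error only. The groups did not overlap, and the exact permutation p was again 0.33. The difference of -8.94 percentage points, snapback minus yw, was -5.62 without yw replicate 2. Among distinct tags, A10 tags were 17.4% and 17.8% in snapback and 21.1% and 23.6% in yw, so the gap was narrower when each tag counted once.

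**Figure D1:**
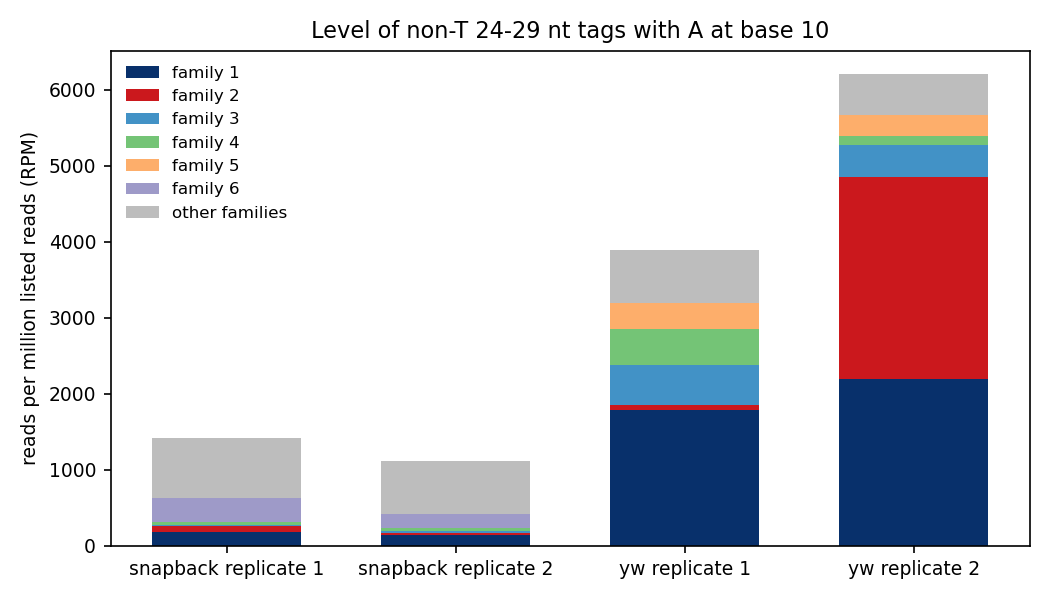
Stacked bars give the level of A10 tags in reads per 1000000 listed reads for each library, with the 6 most abundant families of overlapping tags in colour and all other families in grey. Family 2 (red) is large in yw replicate 2, at 2654 RPM, and small in the other libraries, and family 6 (purple) is visible in snapback only.

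Most A10 reads came from few sequences. Tags that shared a stretch of 15 bases on the same strand formed 434 families, of which 251 held a single tag. The 5 largest families by level held 543 of the 1676 tags. They took 81.8% and 91.3% of A10 reads in yw but only 21.7% and 21.2% in snapback. Without these 5 families, 1106 and 873 RPM remained in snapback and 708 and 541 in yw, so the order of the genotypes turned. The difference in the share of reads not beginning with T turned as well, to 4.32 percentage points. The 5 families were singled out by their level in these libraries, so this turn is a description.

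Family 1, led by the 27 nt tag beginning GAGGT, held 223 tags. Its level was 177 and 140 RPM in snapback and 1782 and 2192 in yw. By listed reads it was 12.5-fold higher in yw, and unlisted reads of the family could change that fold. Of its 223 tags, 14 and 15 were listed in snapback and 105 and 169 in yw. One 5′ end carried 85.7% of its reads, and the tags with that end differed in where they stopped. The 24, 25, 26 and 27 nt forms beginning GAGGT were 287, 429, 252 and 546 RPM in yw replicate 1, and 298, 430, 323 and 654 in yw replicate 2. In snapback replicate 1 the same forms were 1.88, 6.57, 41.8 and 57.2 RPM, and in snapback replicate 2 they were 0.514, 5.40, 29.9 and 19.7. All 4 forms were lower in both snapback libraries, the 24 and 25 nt forms by more than the 26 and 27 nt forms. The 24 nt form was 245-fold higher in yw, the 25 nt form 71.8-fold, the 26 nt form 8.01-fold and the 27 nt form 15.6-fold. The edgeR log2 differences of these forms, in order of length, were -9.09 ± 1.02, -7.24 ± 0.79, -4.10 ± 0.73 and -5.12 ± 0.77 (SE, adjusted p = 0.00154 for each).

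Family 2, led by a 25 nt tag beginning ATTGG, was large in a single library. It held 87.0 and 29.04 RPM in snapback, 75.0 in yw replicate 1 and 2654 in yw replicate 2. Its lead tag had 15581 reads in yw replicate 2 and was listed in no other library. It differs from the start of the family's 29 nt form by the substitution A20C, where the base of the 29 nt form comes first and positions count from the 5′ end. That 29 nt form was listed in all 4 libraries at 67.9, 20.05, 24.3 and 16.2 RPM. The 25 nt form without a substitution had 0 and 4 reads in snapback, 828 in yw replicate 1 and 7655 in yw replicate 2.

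Within family 2, 50 forms of 25 nt with 1 or more substitutions were listed in yw replicate 2, and none of them in the other 3 libraries. They held 32208 reads, or 34.2% of the A10 reads of that library. These were the forms with the same first 15 bases as the unsubstituted form. Their substitutions could therefore lie only between positions 16 and 25. Forms of family 2 with a substitution at or before position 15 were not counted. Another 4 forms with up to 5 substitutions, the first at or before position 15, fell in other families, with 22 reads in yw replicate 2 and none listed elsewhere. Forms with another base at position 10 are not A10 tags and were not counted. Position 17 was substituted in 16412 reads, position 20 in 15639, position 22 in 10477 and position 24 in 7287. Without these forms yw replicate 2 held 4082 RPM of A10 tags, near the 3895 of yw replicate 1, and the share of A10 reads among reads not beginning with T was 14.8% there against 14.3%. Whether these forms were present in the larvae or arose in the sequencing of that library was not tested, and the level of 6203 RPM and the share of 20.9% include them. Most of the excess of yw replicate 2 over yw replicate 1 lay in them, while the difference between the genotypes kept its direction at 3.16-fold. Only these forms of family 2 were taken out. Families whose lead tags differ by a few bases from that of a larger family were left in. Among them, families 109 and 122 were listed in yw replicate 2 only, and families 141 and 195 in yw replicate 1 only.

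Families 3 to 5 were also higher in both yw libraries. Family 3, led by a 25 nt tag beginning ATAAT, was at 10.9 and 26.5 RPM in snapback and 526 and 425 in yw. For family 4, led by a 25 nt tag beginning CAGGT, the values were 32.5 and 39.2 RPM in snapback and 466 and 126 in yw. The third of these, family 5, was listed at 0 in both snapback libraries and held 338 and 264 RPM in yw. A family of several tags can hold more than 3 unlisted reads, so no fold is given for it. Family 11 began with the same 5 bases as family 5, CAAGA, and was likewise listed in yw only, at 50.3 and 45.1 RPM.

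The most abundant snapback family was family 6, led by a 25 nt tag beginning GTTTC. It held 321 and 176 RPM in snapback and 1.56 and 0.527 in yw. By listed reads it was 238-fold higher in snapback. Of its 7 tags, 5 were listed in each snapback library and 1 in each yw library, so that fold depends on the cutoff of 4 reads. Its lead tag had 1676 and 1349 reads in snapback and 32 and 8 in yw, with a log2 difference of 6.76 ± 1.02 (SE, adjusted p = 0.00154, edgeR). Family 13, led by a 27 nt tag beginning AAGAA, held 52.0 and 31.5 RPM in snapback and 2.69 and 2.31 in yw. For family 14, led by a 28 nt tag beginning CTGCC, the levels were 36.0 and 38.7 RPM in snapback and 3.96 and 6.45 in yw.

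Family 17 was listed in snapback only, at 24.01 and 44.8 RPM. Of its 22 tags, 20 had the same first 21 bases and 20 different tails after them. The shared start reads like the end of the 5′ adapter of Illumina small RNA kits as it is commonly known. No adapter sequence is among the files, so this was not tested. Over the 20 most abundant families, both yw libraries lay above both snapback libraries in 10 and below them in 8. Over all 434 families these counts were 89 and 83. The 20 were ranked by their level in the same libraries, so their counts are a description. Families 5 and 11, whose lead tags differ at a single base, count separately among the 10. Families 2 and 16 overlapped between the genotypes.

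**Figure D2:**
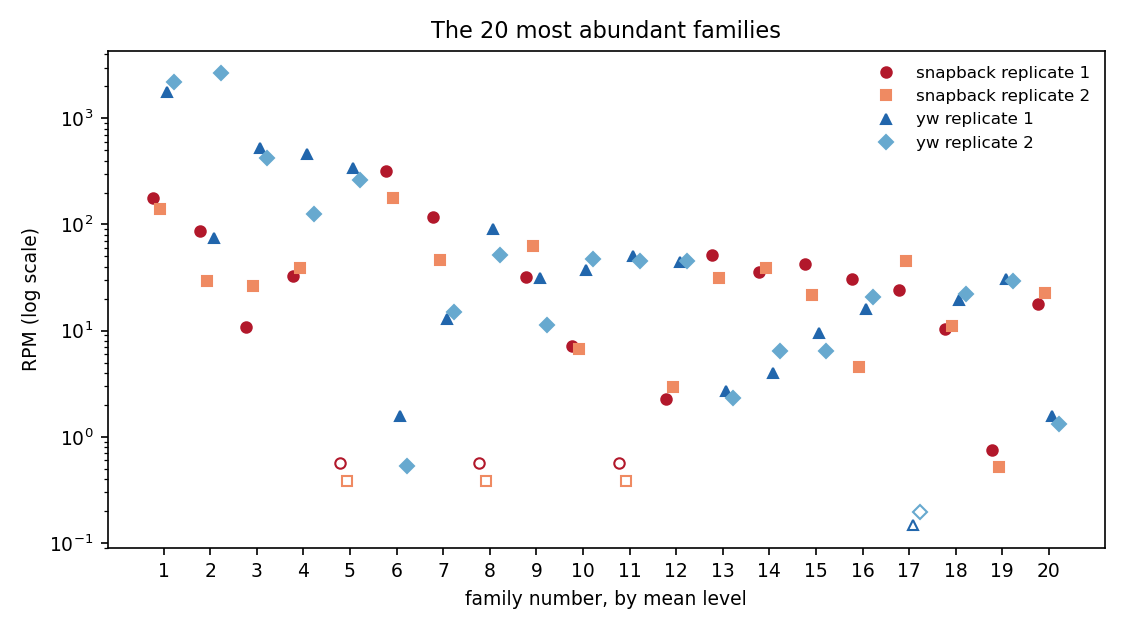
Each point is the level of a family of A10 tags in a library, in reads per 1000000 listed reads on a log scale, and open symbols stand for a family with no listed tag, drawn at 3 reads as a place on the axis and not as a limit. Families 5, 8 and 11 were not listed in snapback and family 17 not in yw, and the yw points of family 2 lie far apart.

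Long A10 tags took a larger share of A10 reads in snapback. Reads of 28 and 29 nt were 21.9% and 23.9% of A10 reads in snapback and 4.21% and 2.28% in yw. Other tags not beginning with T had the same pattern, with 26.1% and 18.7% in snapback and 3.70% and 3.11% in yw, so other tags showed this split as well. Reads of 25 nt were 36.3% and 28.5% in snapback and 37.3% and 60.5% in yw. C was the first base of 33.9%, 33.8%, 39.5% and 28.3% of A10 tags in the 4 libraries, against 27.0%, 30.6%, 20.8% and 16.3% of the other tags. G was rarer among A10 tags, at 21.0%, 22.2%, 24.97% and 26.1% against 37.6%, 30.1%, 40.1% and 44.6%. A was first in 45.1%, 43.9%, 35.5% and 45.6% of A10 tags, and the shares of A and of C overlapped between the genotypes. The values of first bases are in the order snapback replicates 1 and 2 and yw replicates 1 and 2.

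Many A10 tags stood beside another tag that began 1 base away. This held for 65.2% and 66.7% of A10 tags in snapback and 63.0% and 73.9% in yw. For the other tags not beginning with T it held for 57.7% and 66.9% in snapback and 56.3% and 60.9% in yw. A10 tags that lay whole within a listed tag of 30 nt or more were 59.2% and 62.1% in snapback and 25.9% and 43.8% in yw, and the other tags split alike, at 55.4% and 56.5% in snapback and 22.4% and 41.7% in yw. An opposite-strand tag of 18 to 30 nt that shared 15 bases was rare. It was found for 3 of 319 and 5 of 396 A10 tags in snapback and for 25 of 965 and 12 of 752 in yw, or 0.940%, 1.26%, 2.59% and 1.60%. For the other tags the shares were 0.330%, 1.81%, 1.85% and 1.85%, within the 95% intervals of the A10 tags in all 4 libraries.

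The name of secondary piRNAs rests on an A at base 10. Over distinct tags not beginning with T, A was less frequent at base 10 than on average at the 2 bases beside it. In yw it was more frequent than at base 11. Shares over this whole pool cannot show whether some of the tags are secondary piRNAs, which was not tested. Among distinct tags not beginning with T, A stood at base 10 in 17.4% and 17.8% in snapback and 21.1% and 23.6% in yw. At base 9 it stood in 27.3%, 25.2%, 27.8% and 30.1%, and at base 11 in 18.5%, 21.0%, 18.2% and 20.5%, in the same order of libraries. Base 10 minus the mean of its neighbours was -5.48 and -5.24 percentage points in snapback and -1.98 and -1.69 in yw. Over bases 2 to 24, ranked from the most A to the least, base 10 was in place 23 and 22 in snapback and 18 and 12 in yw, of 23 places. The base with the most A was base 14 in all 4 libraries, at 35.4% to 41.3%.

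When each 5′ end counted once, base 10 differed from its neighbours by -3.70 and -2.63 percentage points in snapback and by 0.469 and -0.241 in yw. So counted, the yw libraries lay on both sides of 0. Tags that begin with T, which the ping-pong model does not expect to carry the A, had it at base 10 in 18.1%, 18.9%, 26.3% and 25.7% of cases. Over distinct tags that share was higher than in tags not beginning with T in each library. By reads it was 8.04%, 8.58%, 26.1% and 14.0% against 8.99%, 8.31%, 14.3% and 20.9%, so the order differed between libraries. The most common base at position 10 of tags not beginning with T was G, at 43.5% and 41.3% in snapback and 40.8% and 42.6% in yw. Tags beginning with T made up 29.4% and 32.5% of the distinct tags of this size in snapback and 28.98% and 23.97% in yw.

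**Figure D3:**
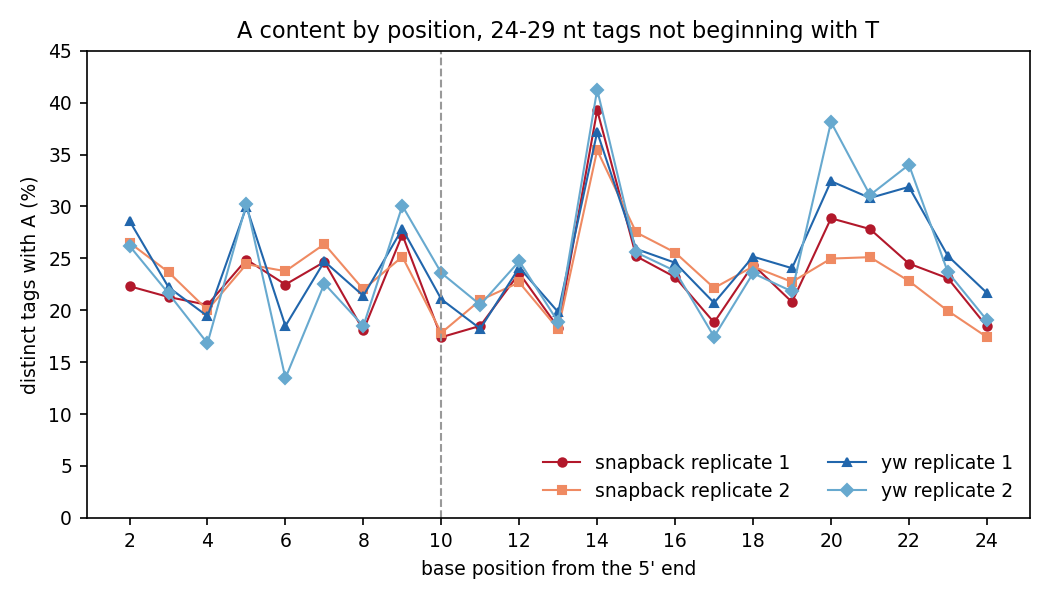
Lines give, for each library, the percent of distinct 24 to 29 nt tags not beginning with T that have A at bases 2 to 24, and the dashed line marks base 10. No library has a peak at base 10, where values run from 17.4% to 23.6%, and all 4 have their highest value at base 14.

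Pairs with a 5′ overlap of 10 bases were few. An A10 tag was counted as paired when the same library listed a 24 to 29 nt tag whose first 10 bases were the reverse complement of its own first 10. This held for 2 of 319 tags (0.627%) and 4 of 396 (1.01%) in snapback, and for 2 of 965 (0.207%) and 0 of 752 in yw. For the count of 0, the exact 95% interval reaches 0.489%. The exact 95% intervals of the other 3 shares were 0.0760 to 2.25, 0.276 to 2.57 and 0.0251 to 0.747. These intervals count overlapping tags as separate, so they may be too narrow. Paired tags held 0.226% and 0.325% of A10 reads in snapback and 0.0264% and 0 in yw. The groups did not overlap, with an exact permutation p of 0.33, and among tags with at least 20 reads no A10 tag had a partner in any library.

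The paired tags were 6 in number with 5 different starts, and none had more than 16 reads. The 24 nt tag beginning AACCC had 6 and 14 reads in the snapback libraries, beside 4 and 8 reads of its partner, and neither was listed in yw. The 27 nt tag beginning ATTTA had 11 and 6 reads, and its 26 nt form 4 reads in snapback replicate 2. Partners of this start held 17 and 13 reads in snapback and 33 and 25 in yw, where the A10 tag itself was not listed. In yw replicate 1, the 24 nt tags beginning ATTTC and CACAG had 16 and 5 reads, and their partners 29 and 4. These pairs are not separate, since the partner of each begins 1 base before the other A10 tag on the same strand. Those 2 tags had 15 and 4 reads in yw replicate 2, with no partner listed. The last paired tag, of 24 nt and beginning CCGGC, had 4 reads in snapback replicate 2. No tag was paired in all 4 libraries, and 2 were paired in both snapback libraries.

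Tags not beginning with T and with another base at position 10 had no such partner in any library, 0 of 9392 listings against 8 of 2432 listings of A10 tags. The difference was 0.461 percentage points on average (exact sign-flip permutation p = 0.25 over 4 libraries, where the smallest possible is 0.13), and 0.278 without snapback replicate 2. This comparison is not free of the choice of tags, since an A at base 10 pairs with a T-first tag and T was the most common first base of the 24 to 29 nt tags in snapback replicates 1 and 2 and yw replicate 1. With base 10 left free and bases 1 to 9 matched, the difference was 4.75 and 6.51 percentage points in snapback and 0.214 and 0 in yw. Most of that came from family 17, which held 12 of the 16 matching tags in snapback replicate 1 and 20 of the 26 in snapback replicate 2. These tags have one start and match one partner, so they are not separate pairs. Without family 17 the difference was 1.04 and 1.55 in snapback.

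The same count at other overlaps gave a comparison on equal terms. At each overlap of 10 to 19 bases, tags not beginning with T and with A at the last base of the overlap were searched for a T-first tag, and 10 bases were matched. In snapback, 2 and 4 tags had a partner at an overlap of 10, 1 and 3 at 11, and none at 12 to 19. In yw replicate 1, 2 tags had one at an overlap of 10 and 8 at 15, where the share was highest, at 0.674%. In yw replicate 2, the 4 tags with a partner were all at an overlap of 15. The overlap of 10 exceeded the mean of 11 to 19 by 0.594 and 0.939 percentage points in snapback and differed from it by -0.0537 and -0.0545 in yw (exact sign-flip permutation p = 0.5 over 4 libraries). The mean over libraries was 0.356, and 0.162 without snapback replicate 2. With tags of 23 to 29 nt in place of 24 to 29 nt, the overlap of 10 exceeded the mean of 11 to 19 in all 4 libraries. The differences were then 1.18 and 0.754 percentage points in snapback and 0.212 and 0.0507 in yw. The exact sign-flip permutation p was 0.13, the smallest possible, so the sign in yw depended on the lower length limit. Partners under 4 reads would not be listed, so pairs of rarer RNAs were not detectable at this depth.

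**Figure D4:**
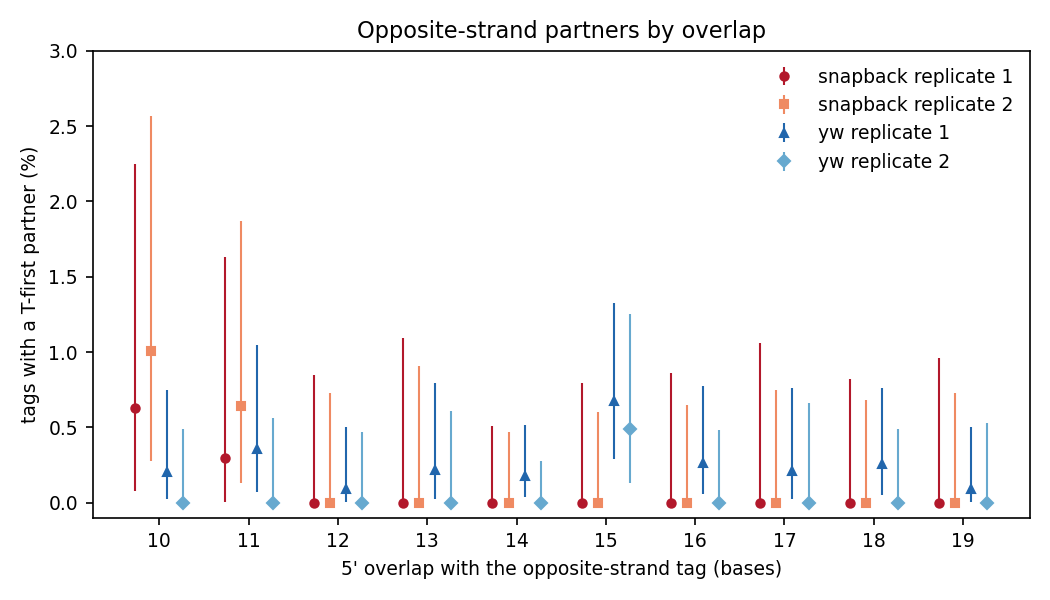
Points give the percent of tags, not beginning with T and with A at the last base of the overlap, that have a T-first opposite-strand tag at overlaps of 10 to 19 bases, with exact 95% intervals, for each library. All values are at or under 1.01%, the snapback points above 0 lie at 10 and 11, and the highest yw points lie at 15. The intervals count overlapping tags as separate.

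Single tags were compared between the genotypes with edgeR over all tags of the series. Of the 30852 tags tested, 79.1% passed the adjusted threshold of 0.05, with 36.8% higher and 42.3% lower in snapback. The filter on low counts kept 244 of the 1676 A10 tags, and 190 of them passed, 93 higher and 97 lower in snapback, which is 77.9% and near the background. Another 1432 A10 tags were not tested. Among the 244, 80 were listed in snapback only and 68 in yw only. Such tags passed the filter through the group where they were present, and all of them passed the test, so they give no measure of how common a change was.

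The 96 tested A10 tags listed in both genotypes gave 42 calls, 13 higher and 29 lower in snapback. That is 43.8%, against 48.7% of the 12568 tested tags listed in both genotypes, of which 22.7% were higher and 26% lower. Their median log2 difference was -0.86, against -0.26 for all such tags and -0.71 for all tags tested. With library totals in place of the TMM normalization, the median of all tags moved from -0.71 to 0.09, and these A10 tags gave 19 higher and 23 lower. Of all tags listed in both genotypes, 33.6% were then higher and 19.1% lower, and their median moved to 0.54 against -0.0038 for the A10 tags. With the replicate number as a block, or without any one library, edgeR called no A10 tag.

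**Figure D5:**
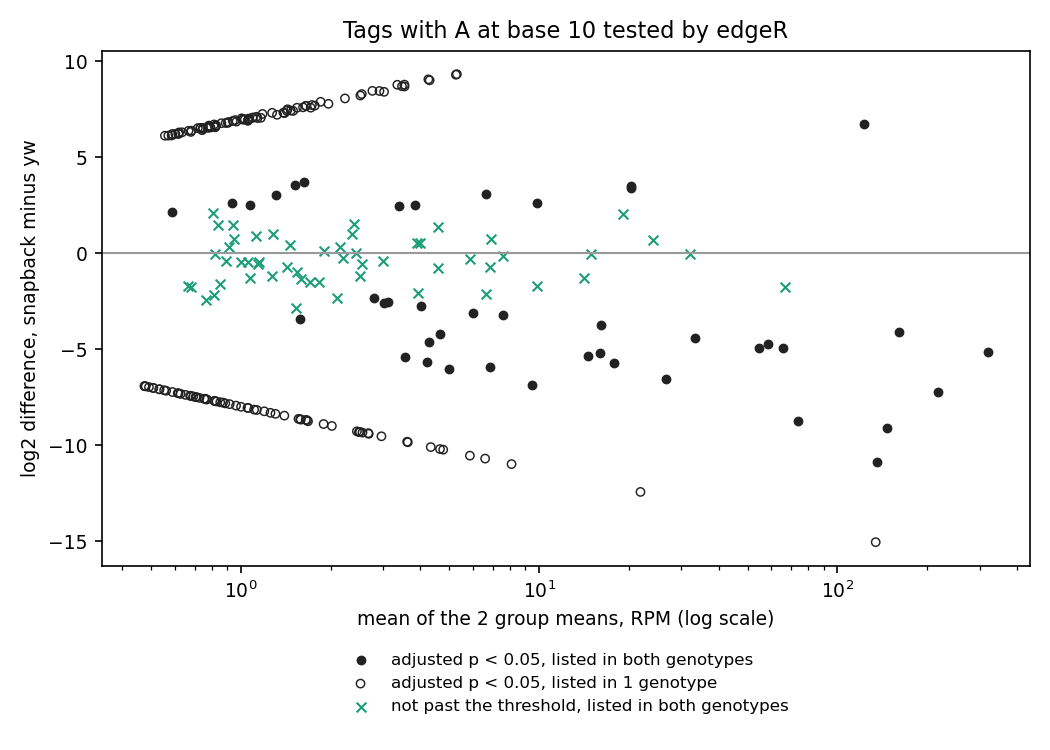
Each symbol is an A10 tag tested by edgeR, with its mean level in reads per 1000000 listed reads on a log scale and its log2 difference, snapback minus yw. The rows of open circles at the top and bottom are the 148 tags listed in 1 genotype only, and the filled circles are the 42 called tags listed in both.

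Among tested tags listed in both genotypes, family 3 gave 5 lower calls of 5 and family 4 gave 4 of 6. Family 1 gave 7 lower calls of 13 and none higher. Among the 20 most abundant families, families 2, 10, 12, 18 and 19 also gave only lower calls for such tags. Higher calls for such tags came from families 6, 13 and 20 (1 of 1 each), 7 (1 of 3) and 15 (2 of 6). Families 8 and 17 were each listed in 1 genotype, so the direction of their calls was fixed by the filter. Tags of a family share sequence and are not independent.

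The 6 increases with the largest fitted log2 difference were tags absent from both yw lists, for which that value depends on the prior count. Among tags listed in both genotypes, the lead tag of family 6 was higher in snapback by a measured 233-fold. The 26 nt tag beginning AATTT had 52 and 89 reads in snapback, and was at least 49.4-fold higher than 3 reads per yw library allow. The 29 nt tag beginning GTGCT had 58 and 79 reads and was at least 51.4-fold higher. The 24 nt tag beginning AGAGG had 29 and 90 reads, the 29 nt tag beginning AATGA 47 and 65, and the 29 nt tag beginning CGCTT 26 and 72. The 27 nt tag beginning GATTA had 9 and 91 reads, so its level differed widely between the snapback libraries, at 1.69 and 11.7 RPM. As tags listed in 1 genotype these had to differ, and no p is given for them.

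The 6 decreases with the largest fitted log2 difference were chosen in the same way. The lead tag of family 5, 25 nt and beginning CAAGA, had 6309 and 3488 reads in yw and none listed in snapback, so it was at least 408-fold lower there. The lead tag of family 11 had 964 and 613 reads in yw and was at least 71.7-fold lower. It differs from the lead tag of family 5 at a single base, and whether their decreases are independent was not tested. In family 8, the 24 nt tags beginning CAGAA and GTGCA had 447 and 159, and 325 and 159 reads in yw, and each was at least 18.6-fold lower. The 27 nt tag of family 1 beginning AAGAG had 214 and 197 reads in yw and was also at least 18.6-fold lower. The unsubstituted 25 nt form of family 2 was among these too, with yw levels of 40.5 and 504 RPM that lay far apart and 4 reads in snapback replicate 2. The other 5 were absent from both snapback lists, so they also had to differ.

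The length limits fell within a continuous range. Tags of 23 nt that met the other conditions held 249 and 261 RPM in snapback and 544 and 485 in yw, against 152 and 180, and 781 and 704, for those of 24 nt. At the upper limit, tags of 29 nt held 199 and 145 RPM in snapback and 73.4 and 71.9 in yw, and tags of 30 nt held 111 and 111, and 28.6 and 25.9. The shorter tags were thus higher in yw and the longer ones higher in snapback on both sides of the limits.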

How the data were processed

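Per the labels' protocols, total RNA of 50 larvae was isolated in Qiazol, passed through a miRNeasy enrichment of small RNA and prepared with an Illumina small RNA TruSeq kit. The authors deposited raw read counts per distinct tag, per the file headers, not normalized, with 4 as the lowest count. The build dm3 is named in the submitters' processing notes. How reads were trimmed and filtered is not given in the sources used here.

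Levels are reads per 1000000 listed reads. The total of a list is not the full depth of its library. Tags were fitted together in edgeR 4.0.16 (R 4.3.3) by the quasi-likelihood test with TMM normalization, filterByExpr and Benjamini-Hochberg adjustment over all tags tested. DESeq2 1.42.0 was an alternative. The fit was tested on simulated data, where it found the largest changes and missed most of the smaller ones. The first simulated settings gave no calls, and wider changes with less spread between libraries were then simulated. Other comparisons used exact permutation tests over libraries (numpy 2.4.6, scipy 1.17.1).

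The tags, lists and tests were chosen with earlier results of these data known. The text names the 8 A10 tags with the highest mean level and the 6 largest increases and 6 largest decreases past the threshold with at least 1 RPM in the higher group and no overlap. A rule for up to 4 tags paired in all 4 libraries found none. Families, 5′ ends 1 base away and opposite-strand stretches were described after the data were examined. The genome was not used here.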

Additional observations from a re-analysis of the deposited data

How the results depend on the processing

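In edgeR, 190 A10 tags were called (93 higher, 97 lower in snapback), 77.9% of those tested against 79.1% of all tags tested. Without the low-count filter it was 19, with 0 higher and 19 lower, or 1.13% against 2.11%. With library totals it was 190 (99 and 91), or 77.9% against 80.7%. With DESeq2 it was 185 (91 and 94), or 75.8% against 76.1%. With tags of 18 to 30 nt unrelated to the abundant 30 nt tag fitted alone it was 161, 97 higher and 64 lower (fewer tags tested). That was 68.2% against 63.8% of all tags in that fit. Of these A10 calls 60.2% were higher, against 48.9% in the main fit. All tags gave 2502 higher and 2372 lower calls there, and 11353 and 13057 in the main fit. Leaving out any one library left 1 in a group, assumed to vary like the other group, so calls lost there say nothing about stability. A block for the replicate number left 0 calls among all 30852 tags in edgeR (94 A10 tags had an unadjusted p under 0.05). The deviations of same-numbered libraries had a correlation of -0.0576, and the labels give no shared batch. Of 17 named tags fitted, all kept their direction under every alternative that gave a value, and 9 no longer passed without the filter. The cause was not tested.

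Levels, shares and pairing kept their direction except without the 5 largest families, where the level difference was 364.8 RPM and the share difference 4.32 percentage points, and except pairing between genotypes, which was 0 with at least 20 reads, where no A10 tag was paired. The overlap difference kept its direction on average, but in both yw libraries it turned from negative to positive with tags of 23 to 29 nt. Without any one library, the level difference (snapback minus yw, -3789 RPM) ran from -4942 without yw replicate 1 to -2635 without yw replicate 2, the share difference (-8.94 percentage points) from -12.3 to -5.62 (without yw replicate 2), the pairing difference (0.461) from 0.278 to 0.615 and the overlap difference (0.356) from 0.162 to 0.493, both lowest without snapback replicate 2, and the paired share of reads (0.262) from 0.212 to 0.312. The deficit of A at base 10 against its neighbours, -3.60 on average, was -1.53 over distinct 5′ ends and -4.23 to -2.97 without any one library. Alternatives on the substituted forms, the 5 largest families, family 17 and the weighting of base 10 were added after the data were examined.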
